A study of Caenorhabditis elegans with 6 samples.

Results

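The astacins are a family of secreted zinc metalloproteases, and Caenorhabditis elegans names most of its astacin genes nas, for nematode astacin. They were selected as the protein-coding genes of the deposited table whose name is nas followed by a number. The selection rule used names and gene types and no measured value, though earlier results of these data were known when it was chosen. It held 36 of the 22389 genes with read counts, and 23 of the 36 passed the filter on low counts that left 13778 genes to be tested. The gene nas-40 is annotated as a pseudogene and lay outside the selection.

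An astacin is made as an inactive precursor whose propeptide blocks the zinc in the active site, and it cuts its substrates outside the cell once the propeptide is removed. In nematodes these enzymes act on the cuticle at moults and at hatching, on collagen precursors and in the pharynx, the feeding organ. They fall into subgroups by the domains that follow the catalytic domain: nas-1 to nas-5 have little beyond it, nas-6 to nas-15 carry small cysteine-rich ShK domains, most of nas-16 to nas-32 carry EGF-like and CUB domains, nas-33 to nas-38 add thrombospondin repeats, and nas-39 resembles vertebrate tolloid and BMP-1.

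Polyadenylated RNA of whole adult worms grown on solid medium was sequenced from 3 linc-4 libraries and 3 wild type libraries. The linc-4 worms carry a CRISPR deletion of linc-4, a long intergenic non-coding RNA gene, in the N2 background, and the wild type worms are N2. The extent of the deletion, the number of mutant lines and the age within adulthood are not stated in the labels. Nothing states that the libraries came from separate cultures, so p-values measure the spread between these libraries, which may be technical.

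The linc-4 gene itself checked the labels. It had 5, 1 and 1 reads in the linc-4 libraries against 193, 345 and 234 reads in the wild type libraries, a log2 fold change of -7.52 ± 0.48 (SE). Library totals ran from 6560089 to 12790323 counts in linc-4 and from 3736372 to 7428665 counts in wild type. Over all genes tested, 18.7% passed an adjusted p of 0.05 (limma-voom, Benjamini-Hochberg over all tested genes). Those higher in linc-4 were 11.5% of the tested genes, and those lower were 7.18%. All fold changes here are linc-4 over wild type.

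Astacin transcripts were scarce in these adults. All 36 genes together made up 170, 186 and 193 CPM, that is reads scaled to the same library total, in the linc-4 libraries, against 145, 162 and 160 CPM in the wild type libraries. Each linc-4 total was above each wild type total, with means of 183 ± 11.7 CPM in linc-4 and 156 ± 9.25 CPM in wild type (SD, n = 3 each). In bulk RNA, more cells of a type and more RNA per cell cannot be told apart. Unscaled for library depth, the members had 5114 reads in all in the linc-4 libraries and 2515 reads in the wild type libraries. A few genes supplied much of this, since nas-11, nas-20 and nas-37 held 44.8% of the members' reads in linc-4 and 52.3% in wild type.

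Levels of different genes were compared in RPKM, which is CPM divided by exon length in kilobases, with exon lengths from an annotation that is not the one the authors counted on. The median tested member stood at 2.23 RPKM in wild type, against 9.06 RPKM for the median of all tested genes. By wild type RPKM the tested members lay between the 1.90 and 72.1 percentiles of all tested genes, with a median percentile of 19.4. Most tested astacin genes were therefore in the lower part of the range that could be tested.

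**Figure D1:**
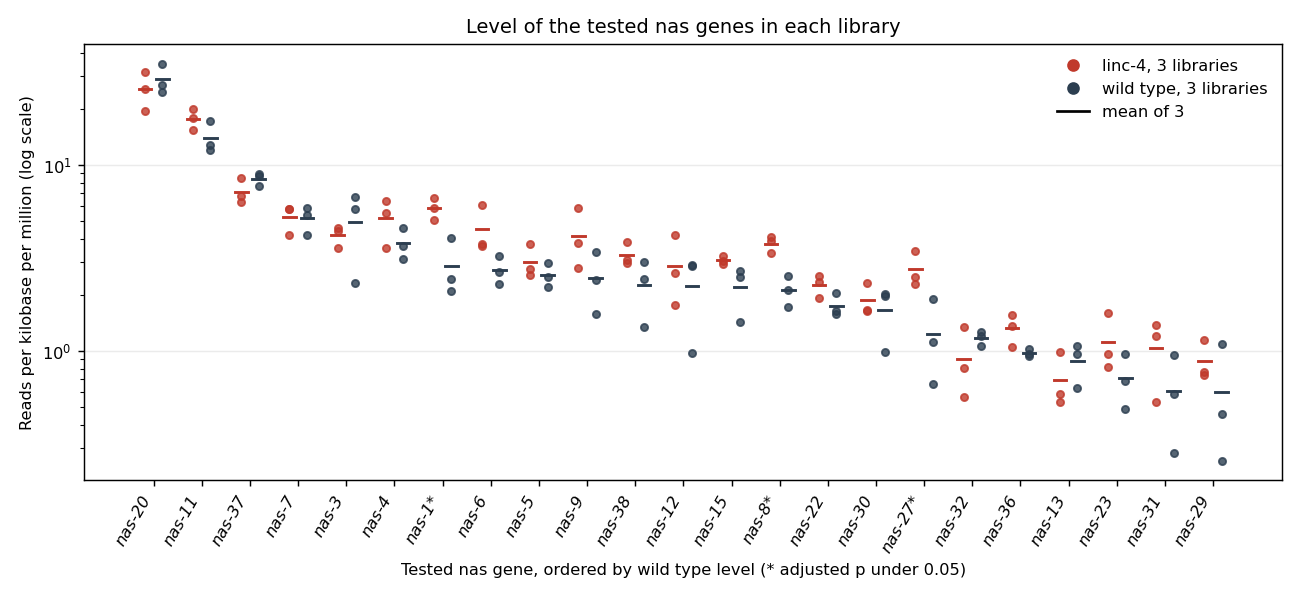
Level of each of the 23 tested nas genes in every library, in RPKM on a log axis, with linc-4 libraries left of wild type libraries and a bar at the mean of 3. The nas-20 and nas-11 points lie well above the other genes, and the linc-4 and wild type points overlap for 17 of the 23 genes.

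Of the 23 tested nas genes, 3 rose in linc-4 worms, 0 fell and 20 did not pass the threshold. The 3 were nas-1, nas-8 and nas-27. They are 13% of the tested members, close to the 11.5% of all tested genes that rose, so their number says nothing particular about the family. At an unadjusted p under 0.05 there were 5 members, all of them higher in linc-4. The share of all tested genes at that threshold was not taken, so this number has nothing to be read against. The authors' deposited table, which also gives values for some members under the filter here, called 1 member higher, nas-1, and 0 lower. Its share of calls over all genes was not set beside this, so the number is not read as a family result.

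The gene nas-1 (WBGene00003520, chromosome III, 13405965 to 13409292, plus strand, WBcel235) encodes one of the short astacins with little beyond the catalytic domain. Its level was 7.68, 6.83 and 5.86 CPM in the linc-4 libraries, against 2.83, 2.44 and 4.69 CPM in the wild type libraries. Every linc-4 library was above every wild type library, and the closest pair was linc-4 3 and wild type 3. These levels rest on 60, 46 and 77 reads in linc-4 and 11, 16 and 26 reads in wild type. The means were 6.79 ± 0.911 CPM in linc-4 and 3.32 ± 1.20 CPM in wild type (SD, n = 3 each), a fold change of 2.05. The log2 fold change was 1.04 ± 0.28 (SE), with an adjusted p of 0.0244 (limma-voom). The call was lost without linc-4 1, linc-4 2, wild type 1 or wild type 2, with adjusted p up to 0.0842 without wild type 2. Its exons overlap no other annotated exon.

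The gene nas-27 (WBGene00003545, chromosome II, 1175976 to 1179323, minus strand) belongs to the subgroup with EGF-like and CUB domains. Its level was 3.71, 4.01 and 5.56 CPM in the linc-4 libraries, against 1.80, 1.07 and 3.07 CPM in the wild type libraries. The groups did not overlap, though wild type 3 came near linc-4 1. The reads behind them were 29, 27 and 73 in linc-4 and 7, 7 and 17 in wild type. This was the highest fold change among the tested members, with a log2 fold change of 1.29 ± 0.37 (SE) and an adjusted p of 0.0305 (limma-voom). The means were 4.43 ± 0.99 CPM in linc-4 and 1.98 ± 1.01 CPM in wild type (SD, n = 3 each). The call was lost without linc-4 2, linc-4 3, wild type 1 or wild type 2, with adjusted p up to 0.121 without wild type 2. In the authors' deposited table its adjusted p was 0.0698, above the threshold. No other annotated exon overlaps it.

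The gene nas-8 (WBGene00003527, chromosome IV, 7114899 to 7119926, plus strand) belongs to the subgroup with ShK domains. Its level was 5.25, 6.09 and 6.47 CPM in the linc-4 libraries, against 3.34, 3.96 and 2.71 CPM in the wild type libraries. All linc-4 libraries were higher than all wild type libraries, from 41, 41 and 85 reads in linc-4 and 13, 26 and 15 reads in wild type. The means were 5.94 ± 0.625 CPM in linc-4 and 3.34 ± 0.626 CPM in wild type (SD, n = 3 each). The log2 fold change was 0.82 ± 0.26 (SE), with an adjusted p of 0.0414 (limma-voom). This call was lost on leaving out any library other than wild type 2, with adjusted p up to 0.144 without wild type 3, and it was lost in the authors' deposited table, where adjusted p was 0.126. The exons of nas-8 share 11 bases with a gene on the other strand, C34D4.10.

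**Figure D2:**
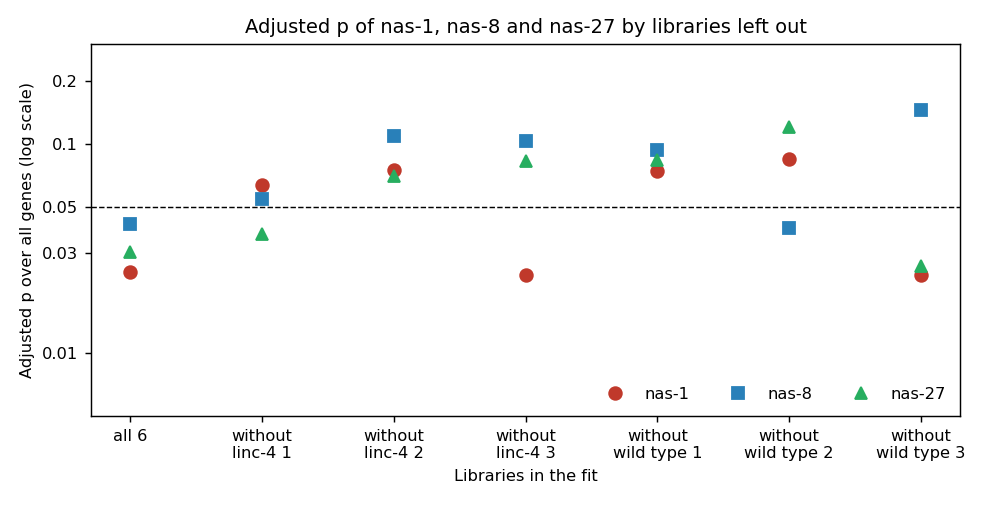
Adjusted p over all tested genes (log axis) for nas-1, nas-8 and nas-27 in the fit to all 6 libraries and in the fits that leave out 1 library each, with a dashed line at 0.05. Each of the 3 genes crosses the line in several of the fits, with a highest value of 0.144 for nas-8 without wild type 3.

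Without regard to the threshold, more tested members had positive than negative fold changes. The log2 fold change was above 0 in 17 of 23 tested members (73.9%), against 48.8% of all tested genes. In lists described below it was above 0 in 14 of 16 tested neprilysins, 4 of 5 matrix metalloproteinases and 10 of 13 moulting genes. It was above 0 in 3 of 8 ADAM and ADAMTS proteases and 2 of 6 collagen maturation genes. The median was 0.40 over the tested members and -0.01 over all tested genes. Values ran from -0.37 for nas-32 to 1.29 for nas-27. Upper-quartile scaling moved the median of all tested genes up by 0.11. The difference between the members' median and that of all tested genes was 0.42 with it and with the scaling used here. Over all alternatives that difference ran from 0.34 without wild type 2 to 0.50 without wild type 3. These figures cover only the genes that passed the filter and have no test of their own.

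Single genes were measured with limited precision. The standard error of a member's log2 fold change had a median of 0.30, and the 95% interval of the members that were not called had a median width of 1.28 on the log2 scale. The 3 linc-4 libraries were all above the 3 wild type libraries for 6 members (26.1%), against 21.2% of all tested genes. These 6 were nas-1, nas-6, nas-8, nas-15, nas-27 and nas-36. No tested member had all its linc-4 libraries below wild type, against 17.7% of all tested genes.

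**Figure D3:**
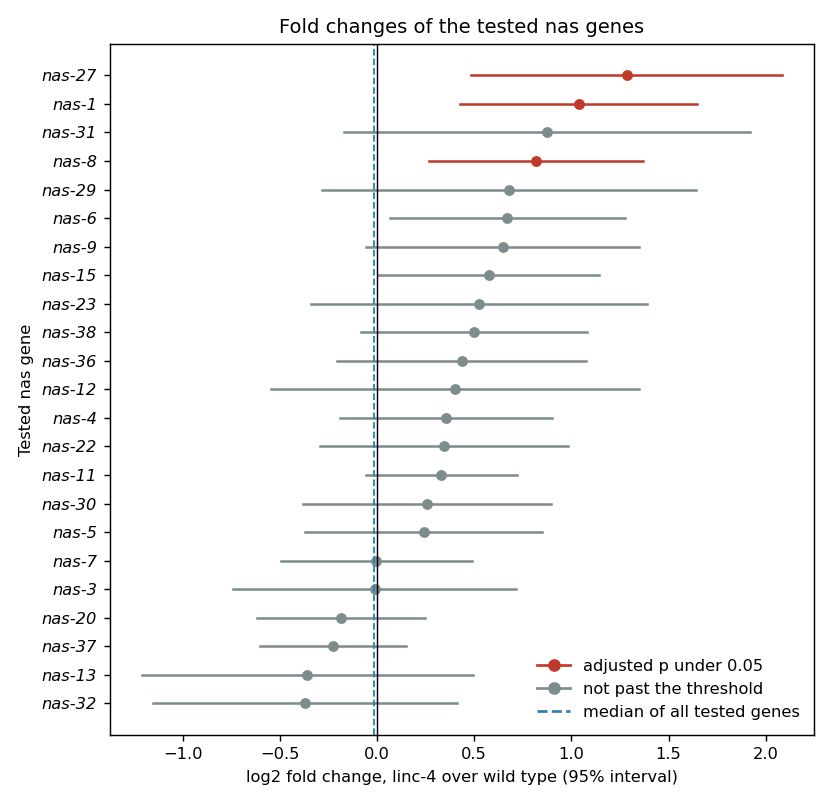
log2 fold change of each tested nas gene, linc-4 over wild type, with its 95% interval, and a dashed line at the median of all tested genes, -0.01. The intervals of nas-1, nas-8 and nas-27 lie above 0 with adjusted p under 0.05, and 17 of the 23 points are above 0.

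The most abundant astacin message per length was nas-20, at 25.5 RPKM in linc-4 and 28.7 RPKM in wild type. Its CPM values were 23.2, 30.3 and 37.8 in the linc-4 libraries and 29.3, 41.6 and 31.9 in the wild type libraries. The groups overlapped, with the lowest value in linc-4 1 and the highest in wild type 2. The log2 fold change was -0.18 ± 0.20 (SE), with an adjusted p of 0.543 (limma-voom). In wild type the nas-20 level per length was 2.05 times that of nas-11, the next in order.

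The gene nas-11 stood at 17.6 RPKM in linc-4 and 14.0 RPKM in wild type. Its CPM values were 27.1, 31.6 and 35.2 in the linc-4 libraries and 21.3, 30.4 and 22.7 in the wild type libraries. Only wild type 2 overlapped the linc-4 range, and the log2 fold change of 0.33 had an adjusted p of 0.207 (limma-voom). Its exons share 163 bases with smf-2 on the other strand. The 5 highest members by wild type RPKM also included nas-3, at 4.19 RPKM in linc-4 and 4.92 RPKM in wild type. The log2 fold change of nas-3 was -0.01, with an adjusted p of 0.984 (limma-voom). It turned positive under upper-quartile scaling. The other two in the top 5, nas-37 and nas-7, have known roles and are described with them.

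The genes nas-36 and nas-37 did not pass the test in either direction. The enzymes they encode are needed to shed the old cuticle, and adults no longer moult. The gene nas-37 was the better expressed, at 16.01, 17.2 and 21.4 CPM in the linc-4 libraries and 22.1, 22.5 and 19.5 CPM in the wild type libraries. Its groups overlapped through linc-4 3 and wild type 3, and its log2 fold change was -0.23 with an adjusted p of 0.379 (limma-voom). For nas-36 the values were 3.07, 2.38 and 3.50 CPM in linc-4 and 2.31, 2.13 and 2.16 CPM in wild type. Those groups did not overlap, by a small margin, and the log2 fold change of 0.44 had an adjusted p of 0.315 (limma-voom).

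The gene nas-38 affects the sleep-like state that accompanies moulting, and a gain of its function raises antimicrobial peptides in the epidermis. It had 6.79, 8.76 and 7.005 CPM in the linc-4 libraries and 3.09, 6.85 and 5.59 CPM in the wild type libraries. The overlap was between linc-4 1 and wild type 2, and the log2 fold change of 0.50 had an adjusted p of 0.208 (limma-voom). The tolloid relative nas-39 was under the filter, with 19 reads over the linc-4 libraries and 6 over the wild type libraries, unscaled for depth. In addition, 276 exon bases of nas-39 are shared with F38E9.1 on the same strand.

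A moulting cycle term is attached in the deposited table to 20 of the 36 members, all from nas-16 to nas-38. Of these, 11 were tested and 1 rose, nas-27, with a median log2 fold change of 0.44. Of the 16 members without the term, 12 were tested and 2 rose, nas-1 and nas-8, with a median of 0.38. By subgroup, 1 of 4 tested genes from nas-1 to nas-5 rose, 1 of 8 from nas-6 to nas-15, 1 of 8 from nas-16 to nas-32, and 0 of 3 from nas-33 to nas-38. The subgroup medians of the log2 fold change were 0.30, 0.49, 0.44 and 0.44 in the same order. The 3 genes that rose came from different subgroups and different chromosomes.

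The pharyngeal astacins were measured next to their tissue's markers. The genes nas-6 and nas-7 are needed for a normal pharyngeal grinder, which crushes bacteria. For nas-6 the levels were 8.83, 5.35 and 5.48 CPM in the linc-4 libraries and 3.86, 3.35 and 4.69 CPM in the wild type libraries. All linc-4 libraries were higher, linc-4 1 by the widest margin, and the log2 fold change of 0.67 ± 0.28 (SE) had an adjusted p of 0.108 (limma-voom). For nas-7 the levels were 5.63, 7.72 and 7.77 CPM in linc-4 and 5.66, 7.92 and 7.22 CPM in wild type. These were near equal, with a log2 fold change of -0.0036 and an adjusted p of 0.993 (limma-voom), and a 95% interval from -0.50 to 0.49. The sign for nas-7 turned under upper-quartile scaling.

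Of 6 markers of pharyngeal muscle, 2 rose and 4 did not pass, and the median log2 fold change was 0.10. The genes tnc-2 and tni-4, a troponin C and a troponin I of the pharynx, rose by log2 fold changes of 0.63 and 0.56, with adjusted p of 0.00895 and 0.0155 (limma-voom). Without linc-4 2 both calls were lost, and without wild type 1 that of tni-4. The other 4, myo-1, myo-2, pha-4 and ceh-22, had log2 fold changes from -0.09 to 0.12. The summed level of the 6 genes was 339 to 377 CPM in the linc-4 libraries and 252 to 260 CPM in the wild type libraries. Most of that sum was tnc-2, with means of 153 CPM in linc-4 and 99.3 CPM in wild type, and tni-4, with 148 CPM in linc-4 and 100.3 CPM in wild type. Of 6 tested pharyngeal gland genes, 0 passed, with summed levels of 66.8 to 71.7 CPM in linc-4 and 44.5 to 64.7 CPM in wild type. Log2 fold changes were above 0 in 5 of these 6. The gland gene phat-3 went the other way at -0.91, with an adjusted p of 0.0534 (limma-voom), and its linc-4 libraries were all below wild type. The part of tissue content in the nas-6 values was not tested.

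Germline markers also differed between the groups. All 6 oocyte markers fell in linc-4, with a summed level of 787 to 855 CPM in linc-4 and 1271 to 1531 CPM in wild type. The sperm markers spe-11 and gsp-3 rose, 2 of the 6 tested of 8, with a summed level of 60.9 to 68.9 CPM in linc-4 and 32.3 to 47.5 CPM in wild type. The embryo marker sdz-19 fell, 1 of the 2 tested of 7, with summed levels of 6.396 to 9.09 CPM in linc-4 and 10.8 to 15.2 CPM in wild type. Most of that sum was sdz-19, with means of 2.48 CPM in linc-4 and 7.80 CPM in wild type, and pes-10, with 1.76 and 3.56 CPM. Of the embryo markers under the filter, tbx-37, end-3, hlh-27 and med-1 had higher mean CPM in linc-4 and end-1 lower, all from few reads. Leaving out linc-4 2 lost the call of oma-2. Leaving out linc-4 1, linc-4 2, wild type 1 or wild type 2 lost that of rme-2, and leaving out any library other than wild type 2 lost that of gsp-3. Their part in the nas values was not tested.

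Among the other somatic markers, in glia vap-1 rose, 1 of 4, with summed levels of 40.6 to 42.04 CPM in linc-4 and 18.9 to 26.9 CPM in wild type. Most of that sum was vap-1 itself, with means of 29.4 CPM in linc-4 and 13.9 CPM in wild type. The other glia genes did not pass, with log2 fold changes from -0.03 for ptr-10 to 0.54 for fig-1. In intestine ges-1 rose, 1 of 7, and in epidermis elt-1 fell, 1 of 7. The ges-1 call was lost on leaving out any library other than wild type 2, and the elt-1 call on leaving out any other than linc-4 1. Summed levels overlapped between the groups in intestine, epidermis and neurons, and 0 of 6 neuron genes passed. Of 5 body wall muscle genes, 0 passed, although their summed levels of 387 to 427 CPM in linc-4 lay above the 328 to 366 CPM in wild type. Their part in the nas values was not tested either.

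The remaining tested members were spread over both signs. The gene nas-15, of the ShK subgroup, had 6.15, 5.94 and 6.55 CPM in linc-4 and 5.40, 2.89 and 5.05 CPM in wild type. Its groups did not overlap, with wild type 2 the lowest, and the log2 fold change of 0.58 had an adjusted p of 0.14 (limma-voom). The gene nas-9 of the same subgroup had a log2 fold change of 0.65 and an adjusted p of 0.177 (limma-voom), with 4.99, 10.5 and 6.85 CPM in linc-4 and 2.83, 6.09 and 4.33 CPM in wild type. The overlap there was between linc-4 1 and wild type 2.

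Members with few reads had wide intervals. The gene nas-31 had a log2 fold change of 0.87 with a 95% interval from -0.17 to 1.92, from 9, 20 and 34 reads in linc-4 and 8, 4 and 7 reads in wild type. For nas-29 the log2 fold change was 0.68, from 12, 10 and 30 reads in linc-4 and 2, 6 and 12 reads in wild type. The gene nas-32 had the lowest log2 fold change, -0.37, with an interval from -1.15 to 0.41. The gene nas-13 was close to it at -0.36, with 13, 6 and 13 reads in linc-4 and 7, 7 and 9 reads in wild type. None of these passed the threshold.

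The other tested members were nas-4, nas-5, nas-12, nas-22, nas-23 and nas-30, with log2 fold changes from 0.24 for nas-5 to 0.53 for nas-23. Their groups overlapped. For nas-4 the count is uncertain, since 437 of its exon bases are shared with C05D11.5 on the same strand. The signs of nas-12 and nas-30 turned without wild type 2.

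The 13 members under the filter had between 0 and 65 reads each over all 6 libraries. The gene nas-2 had 0 reads in every library, and a floor of 3 reads allows up to 0.228 CPM in linc-4 3, the deepest library, and 0.771 CPM in wild type 1, the shallowest. Fewer than 10 reads in all were counted for 5 members. The intervals that follow cover counting error only. The gene nas-21 had 14, 18 and 18 reads in linc-4 and 4, 6 and 5 reads in wild type, a ratio of depth-scaled sums of 1.93 with a 95% interval from 1.06 to 3.70. The gene nas-28 had 6, 7 and 13 reads in linc-4 and 1, 2 and 2 reads in wild type, a ratio of 3.01 from 1.14 to 10.03. In both, every linc-4 library was above every wild type library once scaled for depth.

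The thrombospondin repeat member nas-33 went the other way, with 2, 4 and 6 reads in linc-4 and 3, 5 and 6 reads in wild type. Scaled for depth, every linc-4 library was below every wild type library, with a ratio of 0.496 from 0.209 to 1.15. The remaining low members were nas-25 with 39 reads in linc-4 and 18 in wild type, nas-10 with 13 in linc-4 and 4 in wild type, nas-14 with 9 in linc-4 and 6 in wild type, and nas-24 with 9 in linc-4 and 2 in wild type. With few reads, none of them was tested, and once scaled for depth the libraries of the groups overlapped for each.

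Neighbouring astacin genes on chromosome V differed sharply in level. Of the 36 members, 13 lie on chromosome V and 8 on chromosome X. The genes nas-16, nas-17, nas-18 and nas-19 form a cluster between 11392320 and 11402690. Unscaled for depth, the cluster gave 6 reads in all in linc-4 and 3 in wild type. After a gap of 68177 bases come nas-20, nas-21 and nas-22, separated by 211 and 725 bases. In wild type nas-20 was 34.8 times as abundant per length as nas-21, at 28.7 and 0.823 RPKM. The gene nas-22 stood at 2.27 RPKM in linc-4 and 1.75 RPKM in wild type. Across this stretch, with its gap, members thus ranged from very few counted reads to the family's most abundant per length in both groups. How shared reads were handled is unknown, so few counted reads need not mean little transcript.

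Astacins under other names gave no call. The gene dpy-31, which encodes the procollagen C-proteinase for the cuticle collagen SQT-3, averaged 14.8 ± 0.695 CPM in linc-4 and 11.4 ± 1.74 CPM in wild type (SD, n = 3 each). The linc-4 libraries were all higher, and the log2 fold change of 0.37 had an adjusted p of 0.173 (limma-voom). The tolloid relative toh-1 averaged 13.3 ± 0.112 CPM in linc-4 and 14.6 ± 1.49 CPM in wild type (SD, n = 3 each), with an adjusted p of 0.619 (limma-voom). The hatching enzyme gene hch-1 had 17 reads in linc-4 and 7 in wild type, unscaled for depth and under the filter.

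Other extracellular metalloproteases were described alongside, from lists of named families. Of 5 tested matrix metalloproteinases, 0 passed, with a median log2 fold change of 0.49. Their best covered genes were zmp-4 at 0.49 and zmp-3 at 0.48. Of 16 tested neprilysins, membrane-bound peptidases, 0 passed, with a median of 0.41. Their best covered genes were nep-17 at 0.16 and nep-22 at 0.07. Of 8 tested ADAM and ADAMTS proteases, 0 rose and 1 fell, with a median of -0.18. That gene was sup-17, the ADAM10 relative that cleaves Notch receptors, at 23.6 ± 0.837 CPM in linc-4 and 46.3 ± 1.64 CPM in wild type (SD, n = 3 each). Its log2 fold change was -0.97, with an adjusted p of 0.000887 (limma-voom), and no library left out changed that call.

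Of the 2 TIMP-like metalloprotease inhibitors, cri-2 rose and timp-1 did not pass. The gene cri-2 had 91.4, 91.95 and 95.02 CPM in the linc-4 libraries and 49.9, 61.3 and 57.6 CPM in the wild type libraries. The groups were far apart, with a log2 fold change of 0.72 ± 0.14 (SE) and an adjusted p of 0.00486 (limma-voom), and the call held with any library left out. For timp-1 the log2 fold change was 0.13, with an adjusted p of 0.609 (limma-voom).

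Among 6 genes of collagen maturation, which include the procollagen substrate of dpy-31, 0 rose and 2 fell. The cuticle collagen gene dpy-17 had 13.6, 15.4 and 20.1 CPM in linc-4 and 37.8, 41.7 and 41.3 CPM in wild type. Its log2 fold change was -1.30, with an adjusted p of 0.00046 (limma-voom), and the call held with any library left out. The prolyl hydroxylase subunit gene pdi-2 fell with a log2 fold change of -0.43 and an adjusted p of 0.0461 (limma-voom), a call lost on leaving out any library. The collagen sqt-3 averaged 226 ± 46.4 CPM in linc-4 and 282 ± 46.3 CPM in wild type (SD, n = 3 each), with an adjusted p of 0.186 (limma-voom).

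Of 13 moulting genes, 2 rose and 0 fell, and the median log2 fold change was 0.11. The genes that rose were mlt-8 at 0.57, with an adjusted p of 0.0386, and the kinase gene nekl-2 at 0.92, with an adjusted p of 0.0199 (limma-voom). The mlt-8 call was lost without linc-4 2, linc-4 3, wild type 1 or wild type 3, and that of nekl-2 without linc-4 1, linc-4 2 or wild type 3. The exons of nekl-2 overlap those of ZC581.9.

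**Figure D4:**
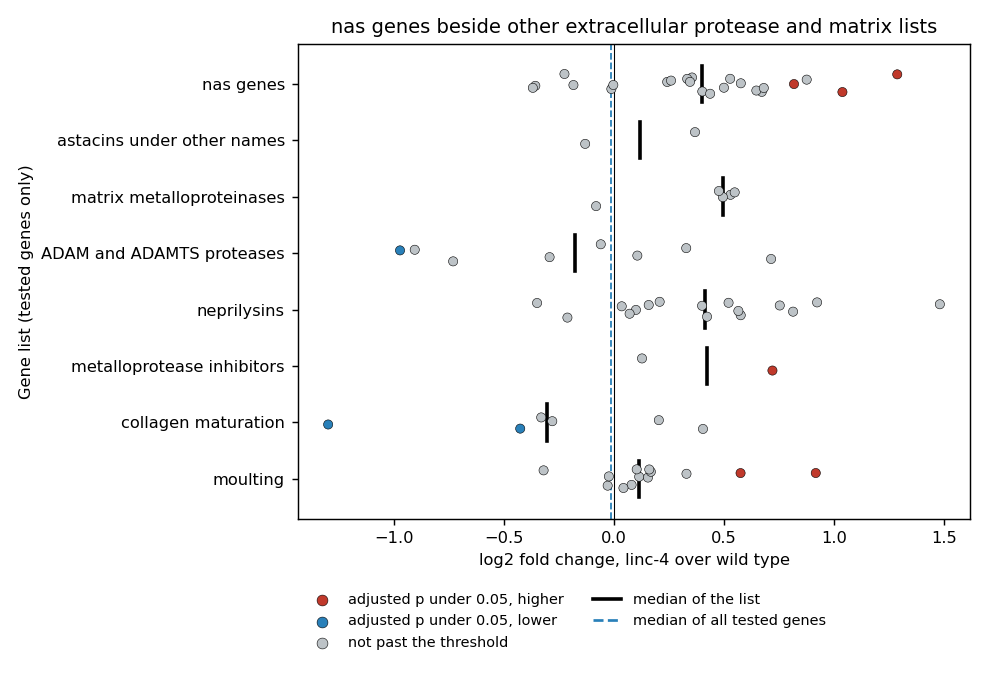
log2 fold change of each tested gene, linc-4 over wild type, for the nas genes and 7 other lists, with a bar at each list's median and a dashed line at the median of all tested genes. The nas genes have a median of 0.40 with 3 called higher, near the matrix metalloproteinases at 0.49 and the neprilysins at 0.41, while collagen maturation genes have a median of -0.31 with 2 called lower.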

How the data were processed

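The submitters' processing notes name, without their roles, TopHat2 2.1.1, DESeq2 1.22.2, HTSeq 0.12.4 and cutadapt 2.10 as tools of the authors, with build WBcel235. Settings, strandedness and the handling of shared reads are unknown here, so reads of overlapping genes cannot be told apart. The authors' deposited table of 46904 rows gives raw read counts, size-factor-normalised counts, log2 fold changes and adjusted p-values. Counts are whole in 22389 rows and a question mark in 24515, which were left out. Because of the question marks the count columns could not be registered as counts, and limma-voom was used.

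Genes needed 15 reads in all and, in 3 libraries, a CPM worth 10 reads in a library of median size. Scaling used trimmed means of M values (30% and 5% trimmed). Tests were two-sided in limma 3.58.1 under R 4.3.3, without covariates, and code was tested on simulated data. CPM and RPKM use the scaled totals. A floor of 3 reads stood for 0.228 to 0.771 CPM, and intervals and floors cover counting error only. Exon lengths came from Ensembl release 115, where 7 of 36 member spans equal the deposited ones. Gene ontology terms are those of the deposited table.

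Named in full were members past the threshold, the 5 highest by wild type RPKM, members with a known genetic role and astacins under other names. Of other lists, genes past the threshold were named or, with none, the 2 with the most reads. The genes nas-9, nas-13, nas-15, nas-29, nas-31, nas-32 and, among markers and other lists, any further gene named serve as examples chosen after their values were seen. Members and lists were chosen with earlier results of these data known. Alternatives covered scaling, filters, weights, the replicate block, single libraries, a fold threshold and the authors' own test. Those for genes of the other lists were added after seeing the data.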

Additional observations from a re-analysis of the deposited data

How the results depend on the processing

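Calls among all genes numbered 2580, and 3 nas genes were called higher. The replicate block gave 1714 (1210 higher, 504 lower) and 1 nas gene, nas-27. The replicate numbers share only a label: same-numbered libraries had correlations of deviations of 0.10, -0.11 and -0.41. Differently numbered libraries ran from -0.43 for linc-4 1 and wild type 2 to 0.49 for linc-4 3 and wild type 2. What lies behind these correlations was not tested. A log2 fold change of at least 1 left 894 calls. The authors' deposited table called 1 nas gene higher, a number given here without that table's share over all genes. Leaving out 1 library gave 948 (without linc-4 2) to 2866 calls (without wild type 2), with 1223 without wild type 1 and 1552 without wild type 3. The nas genes called higher then numbered 0 to 2, with 0 without linc-4 2 and without wild type 1. Members called lower were 0 in every alternative. Upper-quartile scaling split the calls into 2065 higher and 476 lower, against 1591 and 989. The median log2 fold change of tested members ran from 0.32 without wild type 2 to 0.52 with upper-quartile scaling. Signs turned for 4 members, none of them called: nas-3 and nas-7, both near 0, and nas-12 and nas-30, which turned without wild type 2. The cause was not tested. With upper-quartile scaling nas-3 was 0.11 and nas-7 was 0.11, and with no filter nas-3 was 0.018 and nas-7 was 0.032. The value of nas-7 was 0.019 with limma-trend, 0.051 with sample quality weights and 0.018 with the replicate block. Leaving out libraries gave values from -0.56 to 0.23 for nas-3, from -0.11 to 0.14 for nas-7, from -0.20 to 0.81 for nas-12 and from -0.14 to 0.45 for nas-30. Without a filter nas-8 had an adjusted p of 0.0545 (limma-voom). Low read numbers limit these values, with 13 of 36 members under the filter.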
